A study of Mus musculus with 72 samples.

Results

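The genes described here encode the proteins of the cytosolic ribosome, 47 of the 18193 mouse genes that had a probe set naming a single gene on the Affymetrix mouse array used. A gene was taken when its symbol began with Rpl or Rps followed by a digit, or was Rpsa or Fau. Pseudogenes, ribosomal S6 kinases (Rps6k), Rps19bp and Rpl7l genes were left out. Each gene was read on its probe set of highest mean. For 14 genes the name of that probe set ended in _x_at, and its probes may also match other transcripts. Of the 47, 24 belonged to the small subunit and 23 to the large one. A filter on dim probe sets kept 43 (22 small-subunit and 21 large-subunit genes). The other 4, Rpl3l, Rpl39l, Rps4l and Rps16, were read on single dim probe sets and were not tested. The stalk genes Rplp0, Rplp1 and Rplp2 were outside the rule. A further 110 probe sets named a ribosomal protein gene together with other genes and were not used, so the bright probe sets of genes such as Rpl5, Rpl10, Rpl35a and Rpl36a gave no value here.

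A ribosome is built from ribosomal RNAs and one copy each of most of its proteins, and cells make these proteins in matched amounts. Their mRNAs begin with a terminal oligopyrimidine tract, a stretch of C and T at the very start of the transcript, through which growth signals set their translation together. In blood, lymphocytes carry abundant ribosomal protein mRNA, and reticulocytes lose their ribosomes as they mature. Reduced dosage of several of these proteins causes Diamond-Blackfan anaemia, in which red cell production fails. Lead inhibits enzymes of haem synthesis and the nucleotidase that clears RNA remnants from red cells, which leaves the ribosome aggregates known as basophilic stippling.

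Whole blood came from female Balb/c mice, 9 weeks old at the start, given drinking water with lead acetate trihydrate over 2 weeks, followed by 2 weeks without it. Control mice had 0 µg/mL lead acetate throughout. The low-lead mice received 5 µg/mL and the high-lead mice 50 µg/mL. After exposure there were arrays of 7 control, 15 low-lead and 15 high-lead mice. After recovery there were 7 control, 15 low-lead and 13 high-lead arrays. The labels say that the lead-exposed mice were bled at both collections, while for the controls it is not stated whether the same mice were bled again. All blood was drawn from the submandibular vein, and globin transcripts were depleted from the RNA before labelling. The recovery collection was also the later one, so recovery, age, an earlier bleed and any difference in handling cannot be told apart.

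Blood markers were present on all 72 arrays. The log2 intensity of Ptprc, the leukocyte antigen CD45, ran from 11.50 to 12.24, that of S100a8 (neutrophils) from 12.10 to 12.95 and that of the erythroid haem synthase Alas2 from 13.63 to 13.88. Array medians lay between 4.05 and 4.22. Both HighPb_Exp replicate 13 and LowPb_Rec replicate 4 had an unusually wide spread of relative log expression, and results that moved by over 1.5 times without them are given both ways. No 2 arrays held identical values.

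The start sites of 8 of these genes are printed here because the pyrimidine tract is the feature the family is known for, and because the genes include Rpsa, among those with the largest rises in recovery, and Rps27l, which was lower after recovery, beside its paralog Rps27. Sequences are from RefSeq's GRCm38.p6 annotation, each covering 30 bases before and 20 bases after an annotated start. Capitals mark the first run of a C followed by 5 or more pyrimidines on the gene's strand, where it begins within 15 bases of the start.
Rpl35: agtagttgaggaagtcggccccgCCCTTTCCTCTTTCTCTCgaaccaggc
Fau: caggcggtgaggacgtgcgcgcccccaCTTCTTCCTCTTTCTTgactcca
Rpl38: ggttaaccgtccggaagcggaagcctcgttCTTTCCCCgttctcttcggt
Rps10: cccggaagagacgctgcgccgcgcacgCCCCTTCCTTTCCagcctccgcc
Rps6: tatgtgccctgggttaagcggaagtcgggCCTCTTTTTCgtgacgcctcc
Rpsa: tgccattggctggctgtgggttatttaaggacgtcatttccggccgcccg
Rps27: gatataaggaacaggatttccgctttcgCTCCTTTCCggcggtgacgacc
Rps27l: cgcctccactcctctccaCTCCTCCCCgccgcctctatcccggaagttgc
They lie at chr2:39005112-39005161 (Rpl35, minus strand), chr19:6057917-6057966 (Fau, plus), chr11:114668550-114668599 (Rpl38, plus), chr17:27635225-27635274 (Rps10, minus), chr4:86857348-86857397 (Rps6, minus), chr9:120127736-120127785 (Rpsa, plus), chr3:90213629-90213678 (Rps27, minus) and chr9:66946056-66946105 (Rps27l, plus, the first of 2 entries).

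The run began on the start site itself in Rpl38, spanned it in Rpl35, Fau, Rps10, Rps6 and Rps27, ended before it in Rps27l, and was not in this window of Rpsa. Of the 47 genes, 41 had an entry among RefSeq's promoters of 300 bases (250 before to 50 after the start), 49 entries in all. The pyrimidine run was present in 51.0% of these entries and in 22.5% of all 32851 promoters. The motif CCGGAAG, the core bound by Gabpa and other Ets factors, stood on either strand in 40.8% of the members' entries and in 8.86% of all promoters. TCTCGCGA, a motif of housekeeping promoters, stood on either strand in 20.4% of the members' entries and in 0.995% of all. TATAAA, the TATA box, stood on either strand in 10.2% of the members' entries and in 13.6% of all. The run can overlap the other motifs, all 4 were chosen after the sequences were seen, and a match is a description of letters only.

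On the deposited log2 scale the members were among the brightest probe sets of the array. The mean over the 72 arrays was above 12 for 21 of the 43 tested genes, out of 99 of the 12588 tested genes above that level, and above 10 for 34. The highest value on any array was 14.14. Brightness differs between probe sets for reasons other than transcript number, so it gives no order of abundance among these genes. Differences below are log2 differences between group means, with their standard error, from a limma fit over all 72 arrays. A gene is called when its Benjamini-Hochberg adjusted p over the 12588 genes is under 0.05. The p-values rest on the spread among these samples only, which may in part be technical, and the collections of one mouse entered the fit as separate samples.

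The members moved together from array to array. Within groups, the correlation of a gene with the mean of the other members over the 72 arrays had a median of 0.84 and was over 0.5 for 39 of 43 genes. Such a correlation describes these arrays, which share their RNA, labelling and normalization between genes. The 4 exceptions were Rps2 (r = 0.32), Rpl41 (0.23), Rpl27a (0.08) and Rpl39 (-0.22). The highest r of a member was that of Rpl8 (0.94). How many of the other tested genes were over 0.5 is not given, so moving together is not shown to be particular to the family. The genes outside the family whose within-group deviations were most like the members' mean were the actin-binding Ablim1 (r = 0.96), the chaperonin subunit Cct5 (0.94), the initiation factor subunit Eif3f (0.93), the replication protein Rpa1 (0.93) and Qdpr (0.93), over the same 72 arrays.

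The mean of the 43 genes on each array, as a log2 difference from its mean over the 72 arrays, gives the level of the family in each group. After exposure it was -0.04 ± 0.12 in controls (SD, n = 7), -0.02 ± 0.08 with low lead (SD, n = 15) and -0.14 ± 0.11 with high lead (SD, n = 15). After recovery it was 0.12 ± 0.14 in controls (SD, n = 7), 0.10 ± 0.13 in mice that had received low lead (SD, n = 15) and 0.04 ± 0.10 in those that had received high lead (SD, n = 13). The lowest, median and highest arrays were -0.35, -0.16 and 0.00 in the high-lead exposure group, and -0.22, -0.03 and 0.12 in the low-lead one. High-lead arrays thus lay lowest after exposure, overlapping with both other groups, and all 3 groups had a higher mean after recovery. The 22 small-subunit genes and the 21 large-subunit genes each averaged -0.14 in high-lead arrays after exposure.

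**Figure D1:**
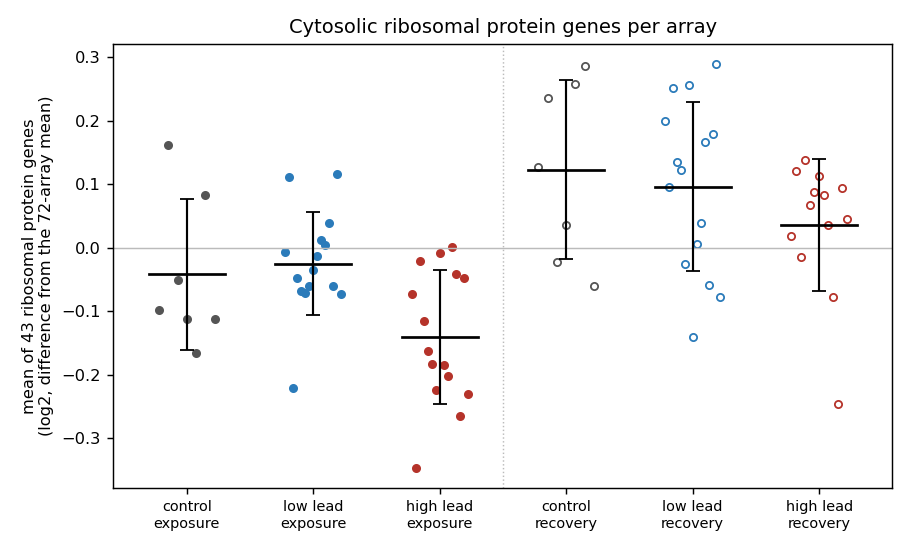
Mean log2 difference of the 43 tested ribosomal protein genes from their 72-array mean, 1 point per array, by group (filled after exposure, open after recovery). Lines and bars are the group mean and SD; high-lead arrays after exposure have the lowest mean, -0.14, and control arrays after recovery the highest, 0.12.

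High lead against low lead after exposure asks how the 2 doses differ at the end of lead intake. Of the 43 genes, 40 were lower with high lead and 17 fell past the threshold, with none rising. The median difference was -0.12, against -0.03 over all 12588 genes. Among all genes 12.6% were called lower and 6.04% higher, and 39.5% of the members were called lower. The calls fell on both subunits, 9 of 22 small-subunit and 8 of 21 large-subunit genes. The changes were small: the largest, that of Rpl12, left 0.792 times the low-lead level.

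Rpl12, a large-subunit protein at the base of the stalk, had low-lead values of 5.19, 5.59 and 5.92 (lowest, median and highest array) and high-lead values of 4.64, 5.24 and 5.64. The groups overlapped, with 7 of 15 high-lead arrays below every low-lead array. The difference was -0.34 ± 0.08 (limma, adjusted p = 0.00338). Rpl11, which binds Mdm2 when ribosome assembly is disturbed and is mutated in Diamond-Blackfan anaemia, ran at 10.42, 10.59 and 11.01 with low lead and 9.93, 10.43 and 10.61 with high lead. High-lead arrays were below the low-lead median in 14 of 15 cases, and the difference was -0.25 ± 0.07 (limma, adjusted p = 0.0141). Rpsa, the small-subunit protein also known as the laminin receptor, ran at 11.44, 11.79 and 12.17 with low lead and 11.21, 11.60 and 11.95 with high lead. Its difference was -0.21 ± 0.08 (limma, adjusted p = 0.0449), with 12 of 15 high-lead arrays under the low-lead median.

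The large-subunit genes Rpl37a (-0.21 ± 0.07) and Rpl8 (-0.19 ± 0.07) also fell. Of the other named genes, Rpl13a, which joins a complex that silences inflammatory mRNAs, fell by 0.17 on the log2 scale and was below the low-lead median on 15 of 15 high-lead arrays. Fau, whose product is cut to release a small-subunit protein from a ubiquitin-like part, fell by 0.15. The X-linked Rps4x fell by 0.14. Rps27 fell by 0.11. Rpl4, Rpl19, Rpl22, Rps18, Rps10 and Rps28, of which the last 2 are, like Rps27, also Diamond-Blackfan anaemia genes, fell too. Among further genes tied to anaemia, Rps14, the small-subunit gene lost in 5q- syndrome, fell by 0.11, as did Rps24 (-0.11), while Rps19 (-0.13, limma adjusted p = 0.175) and Rps26 (-0.12, limma adjusted p = 0.0542) did not pass. Rps6, the S6 kinase substrate, differed by -0.14 (limma, adjusted p = 0.104), Rps3 by -0.11 (limma, adjusted p = 0.108), Rpl38 by -0.03 and Rpl39 by -0.04, none past the threshold.

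Rpl27a, a large-subunit protein, stood on the other side with values of 6.18, 7.54 and 8.13 at low lead and 7.08, 7.80 and 8.26 at high lead, a difference of 0.30 ± 0.12 (limma, adjusted p = 0.0718). Its within-group SD of 0.35 was the widest of the 43 genes. After quantile normalization its difference of 0.35 passed (limma, adjusted p = 0.034), as did that of 0.37 after cyclic loess (limma, adjusted p = 0.0267). Rpl14 (0.01) and Rpl37 (0.00) were the other genes that were not lower.

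The count of 17 depended on single arrays. The limma adjusted p-values of the 17 genes ran from 0.00338 to 0.049, and the count ran from 7 to 28 when 1 of the 30 arrays was left out. It became 8 without LowPb_Exp replicate 3, 4 or 14, 11 without replicate 5 and 28 without replicate 12. It became 7 without HighPb_Exp replicate 1 or 6, 10 without replicate 5, 11 without replicate 9 and 8 without replicate 13. The median difference of the 43 genes stayed between -0.15 and -0.11 in these fits. Without both arrays of wide spread the count was 9.

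Other blood genes and array measures moved with this comparison. Of 15 B cell genes 14 were called lower with high lead (median -0.70), as were 8 of 10 monocyte genes (-0.33). In the other direction 11 of 14 platelet genes (0.30) and 7 of 14 erythroid genes (0.27) were called higher. Among all genes 12.6% were called lower and 6.04% higher. In the T cell list 1 of 14 genes fell, in the natural killer list 0 of 8 passed, and in the neutrophil list 2 of 12 fell. The array mean of the B cell genes ran from -1.04 to -0.04 with high lead and from -0.47 to 0.47 with low lead. The 18S ribosomal RNA control probe sets averaged 7.79 ± 0.99 with high lead and 7.00 ± 0.86 with low lead (SD, n = 15 each). When the array means of 6 marker lists (B cell, T cell, monocyte, neutrophil, platelet and erythroid) entered the fit as covariates, 0 of the 43 genes passed and their median was -0.00, while 111 of the 12588 genes passed. With the 18S level as a covariate 1 member passed, Rpl12 (-0.28), and the median was -0.09. The part of cell makeup or of ribosomal RNA in the result was not tested beyond these fits. In whole blood, fewer cells of a type and less RNA per cell cannot be told apart.

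**Figure D2:**
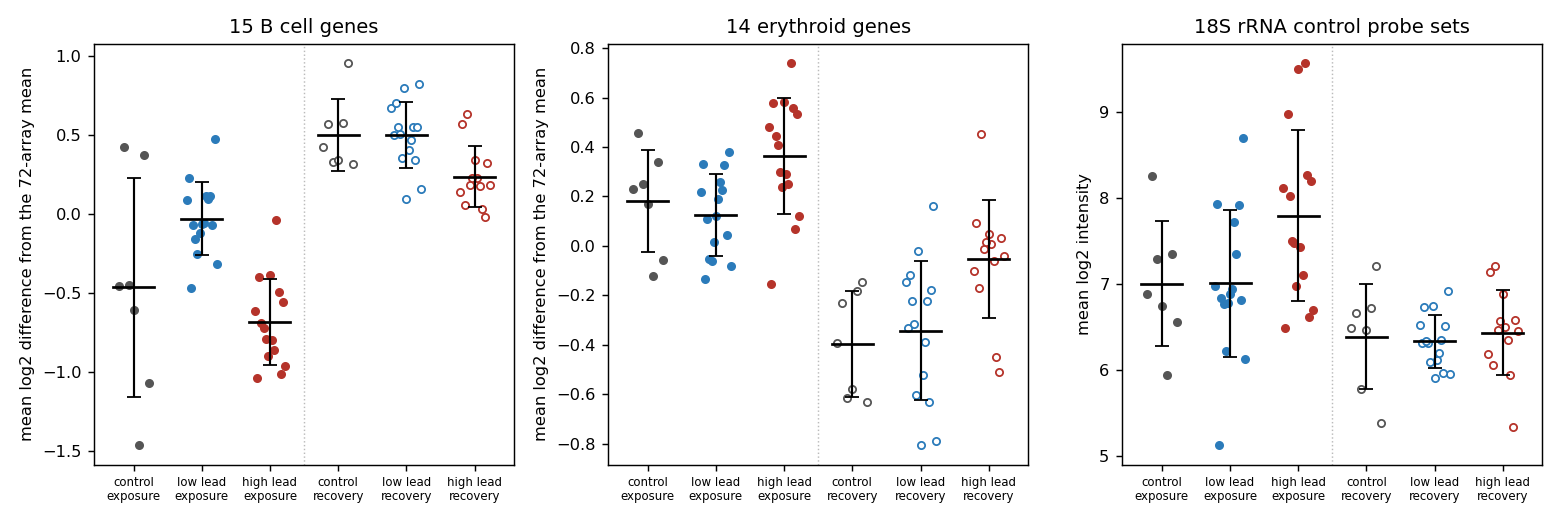
Array means of 15 B cell genes and 14 erythroid genes (log2 difference from the 72-array mean) and of the 18S ribosomal RNA control probe sets (log2 intensity), 1 point per array with group mean and SD. B cell genes average -0.68 and erythroid genes 0.36 in high-lead arrays after exposure, against -0.03 and 0.13 in low-lead arrays.

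The scaling of the arrays also bore on the split between directions. Of the 2349 genes called over the whole array 760 were higher, against 1168 of 2351 with cyclic loess and 1147 of 2604 with quantile normalization. The members' count became 9 after quantile normalization (8 lower, with Rpl27a as the 1 higher), 9 after centring each array on its median and 13 after cyclic loess (12 lower and Rpl27a higher).

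**Figure D3:**
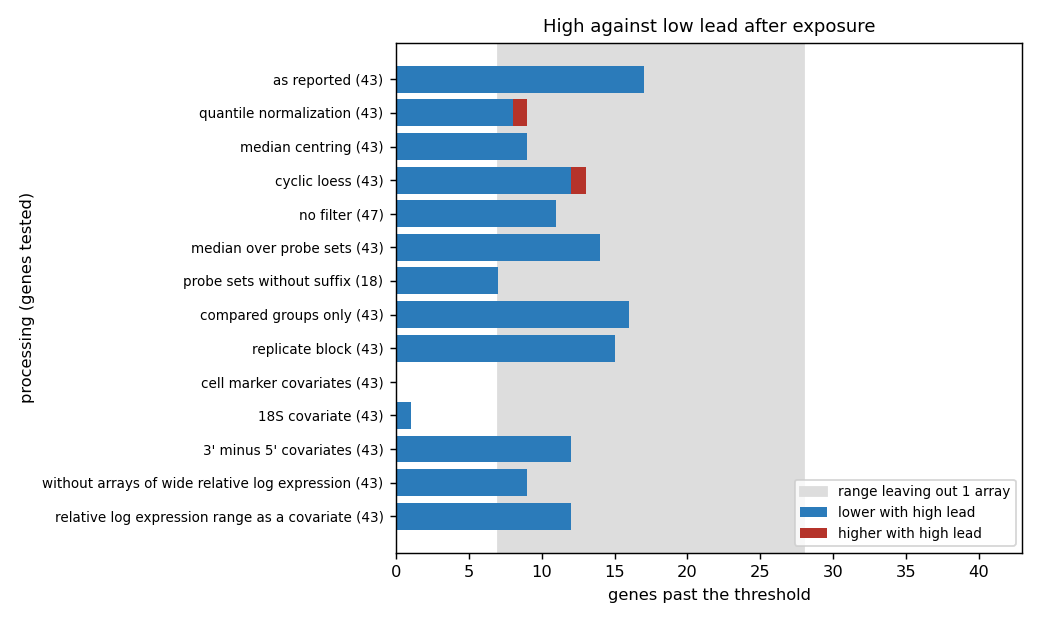
Ribosomal protein genes past the threshold for high against low lead after exposure under each processing (bars, lower in blue and higher in red; number tested in brackets). The grey band is the range from 7 to 28 when 1 array is left out; the bar as reported is 17 and that with cell marker covariates is 0.

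Against the controls, no member passed at either dose after exposure. With high lead 40 of 43 genes were lower, with a median difference of -0.11 against -0.02 over all genes. In limma 0 members were called, against a background of 0.0238% of genes called higher and 0% lower. An unadjusted p under 0.05 was found for 14 members. The share of all genes under that level is not given, here or in the comparisons below. These unadjusted counts therefore have no background beside them. The 3 members with the smallest p were Rpl19 (-0.16 ± 0.06, limma adjusted p = 0.318), Rps10 (-0.14 ± 0.06, limma adjusted p = 0.43) and Rpl4 (-0.17 ± 0.08, limma adjusted p = 0.453). For Rpl19 the control arrays ran at 12.40, 12.46 and 12.61 and the high-lead arrays at 12.11, 12.33 and 12.53, with 11 of 15 high-lead arrays below every control. All 3 genes called over the whole array were higher, against 38 of 68 with cyclic loess and 30 of 75 with quantile normalization. The control group was uneven: its B cell genes ran from -1.47 to 0.42, a wider range than in any other group.

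With low lead the members had no common direction against control, 29 higher and 14 lower with a median of 0.01. In limma 0 were called and 1 had an unadjusted p under 0.05, with 1.11% of all genes called higher and 0.191% lower. The smallest p-values were those of Rps25 (0.17 ± 0.08, limma adjusted p = 0.332), Rpl12 (0.15 ± 0.11, limma adjusted p = 0.614) and Rpl37 (-0.12 ± 0.09, limma adjusted p = 0.636). Of the 164 genes called, 140 were higher, against 228 of 307 with cyclic loess, 233 of 318 with quantile normalization and 90 of 95 after median centring. Both dose comparisons use the same 7 control arrays.

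After recovery no member differed between the doses or from control in the limma fit. High lead was below control in 40 of 43 genes (median -0.09, against -0.03 over all genes), and 4 had an unadjusted p under 0.05. How many of all genes were lower is not given for the dose comparisons after recovery. Rps14 (-0.14 ± 0.05, limma adjusted p = 0.176), Rpl12 (-0.26 ± 0.11, limma adjusted p = 0.347) and Rps9 (-0.14 ± 0.06, limma adjusted p = 0.355), a protein of the decoding region, had the smallest p-values. Over all genes 0.405% were called higher and 0.0238% lower. Of 54 genes called 51 were higher, and 5 of 6 after median centring. Low lead differed from control by -0.13 to 0.08 over the 43 genes (median -0.02), 0 had an unadjusted p under 0.05, and 0% of all genes were called higher and 0% lower. The smallest p-values there belonged to Rps9 (-0.09 ± 0.06), Rpl39 (-0.07 ± 0.04), which lines the exit tunnel, and Rpl19 (-0.07 ± 0.06), each with a limma adjusted p of 1. High against low lead gave a median of -0.06, against -0.02 over all genes, with 39 members lower and 1 with an unadjusted p under 0.05. Again 0% of all genes were called higher and 0% lower. The smallest p-values for high against low lead were those of Rps14 (-0.10 ± 0.04, limma adjusted p = 0.249), Rpsa (-0.15 ± 0.08, limma adjusted p = 0.377) and Rps28 (-0.07 ± 0.04, limma adjusted p = 0.411).

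Between the exposure and the recovery collection the ribosomal protein genes rose in all 3 groups of mice, the controls included. In control mice 18 of 43 rose and none fell, with a median of 0.13. In low-lead mice 21 rose and 1 fell, with a median of 0.11. In high-lead mice 30 rose and 1 fell, with a median of 0.16. The median over all genes was -0.01 in controls and -0.00 in both lead groups. The background was large: 22.5% of genes were called higher and 13.6% lower in controls, 26.2% and 17.9% in low-lead mice, and 29.3% and 19.8% in high-lead mice. The shares of members called higher were 41.9%, 48.8% and 69.8%. The 18 genes that rose in controls also rose in both lead groups: Fau, Rpl6, Rpl8, Rpl10a, Rpl11, Rpl12, Rpl13a, Rpl14, Rpl19, Rpl35, Rpl38, Rps4x, Rps6, Rps15, Rps19, Rps20, Rps25 and Rpsa. How many of all genes rose in all 3 groups was not counted, so this overlap has no background beside it. These 3 comparisons share no arrays, but they share a single estimate of each gene's spread.

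Rpsa rose by similar amounts in the 3 groups of mice. Its control arrays ran at 11.49, 11.75 and 12.02 after exposure and 11.85, 12.13 and 12.49 after recovery. All 7 recovery arrays lay above the exposure median and 5 above every exposure array, a rise of 0.43 ± 0.11 (limma, adjusted p = 0.00188). In low-lead mice the values after recovery were 11.75, 12.17 and 12.56, a rise of 0.38 ± 0.08 (limma, adjusted p = 3.63e-05). In high-lead mice they were 11.51, 12.06 and 12.23, a rise of 0.44 ± 0.08 (limma, adjusted p = 4.64e-06), or 1.35-fold.

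Rps25, a small-subunit protein used in initiation at internal ribosome entry sites, separated the control collections fully. It ran at 7.14, 7.24 and 7.48 after exposure and at 7.53, 7.85 and 7.96 after recovery, a rise of 0.51 ± 0.09 (limma, adjusted p = 7.85e-06). The rises in low-lead (0.26 ± 0.06) and high-lead mice (0.35 ± 0.06) passed too. Rpl12 rose by 0.49, 0.24 and 0.42 in control, low-lead and high-lead mice, Rpl6 by 0.36, 0.28 and 0.35, and Rpl14 by 0.47, 0.34 and 0.32. Rpl14 and Rpl12 were read on dim probe sets, with means of 4.92 and 5.57.

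**Figure D4:**
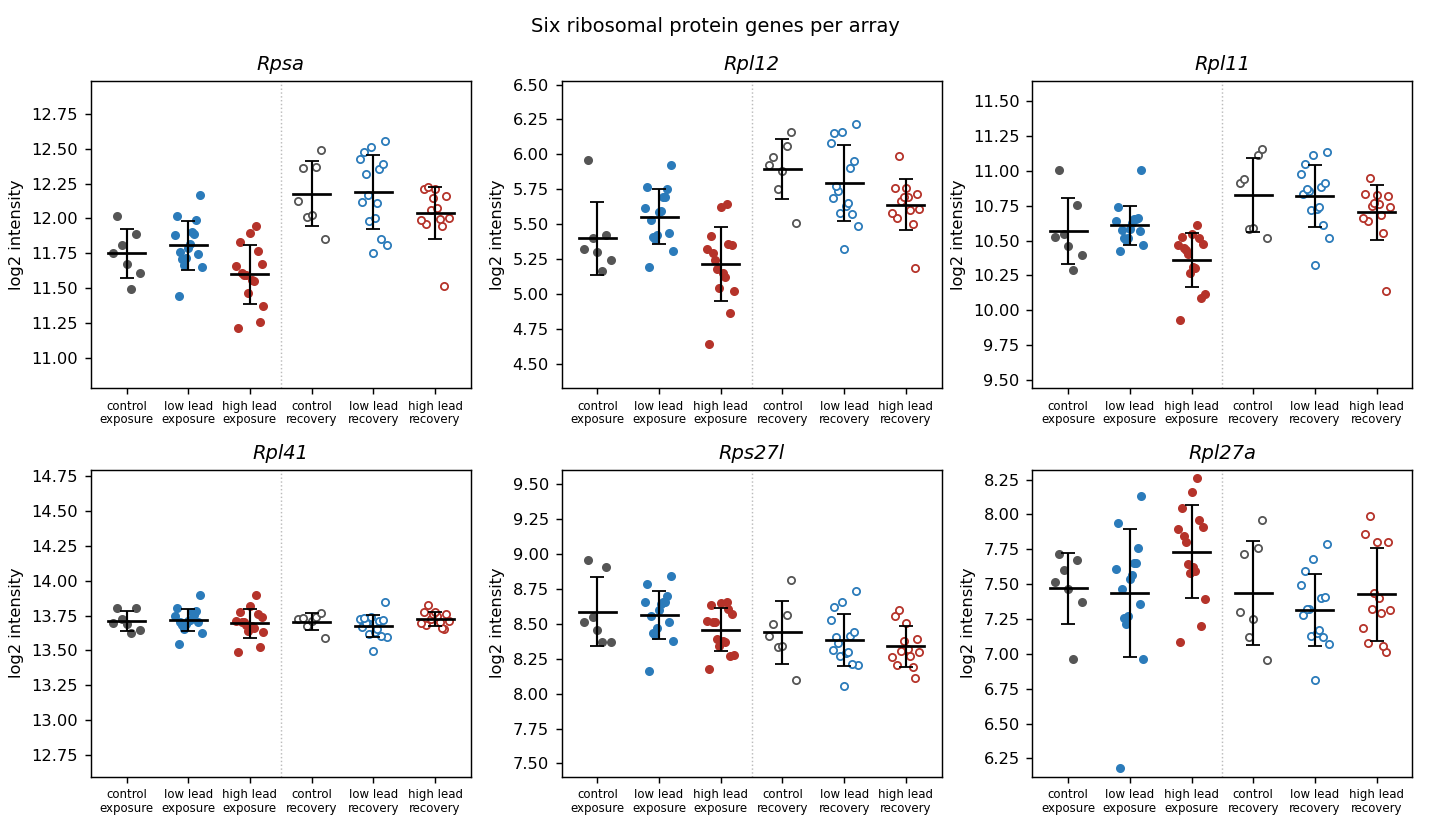
Log2 intensity of Rpsa, Rpl12, Rpl11, Rpl41, Rps27l and Rpl27a on each array by group, with group mean and SD, all panels spanning 2.2 log2 units. Rpsa, Rpl12 and Rpl11 are lowest in high-lead arrays after exposure and higher after recovery, Rpl41 stays near 13.7, Rps27l is lower after recovery, and Rpl27a is highest in high-lead arrays after exposure.

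Among the genes of known roles, Rps6 rose by 0.29, 0.19 and 0.34 in the 3 groups, and its high-lead values went from 5.42, 5.72 and 5.93 to 5.62, 6.06 and 6.38. Rps19, the gene most often mutated in Diamond-Blackfan anaemia, rose by 0.27, 0.23 and 0.30. Rpl11 rose by 0.26, 0.21 and 0.34, with 11 of 13 high-lead recovery arrays above every exposure array. Rps24 (0.11) and Rps26 (0.16) passed in high-lead mice, with differences of 0.08 and 0.12 in controls that did not pass. Rps14 did not pass in any group (0.07, 0.02 and 0.03). Fau rose by 0.27, 0.23 and 0.29, Rpl13a by 0.24, 0.21 and 0.29, and Rps4x by 0.21, 0.22 and 0.28. Rpl38, needed for translation of Hox mRNAs, rose by 0.13, 0.14 and 0.15, a small change on a probe set with little spread: all 7 control arrays after recovery lay above all 7 after exposure. Rps3 rose in high-lead mice (0.12), as did Rps27 (0.13). Rpl37 rose in low-lead (0.27) and high-lead mice (0.19).

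Of the 43 genes, 30 rose in at least 1 group of mice. On the reported probe sets 11 passed in no group in either direction: Rpl7, Rpl7a, Rpl22, Rpl22l1, Rpl27, Rpl39, Rpl41, Rps7, Rps9, Rps14 and Rps18. The matching counts over all genes were not made. Rpl41, which encodes the shortest ribosomal protein, differed by -0.00 ± 0.05, -0.04 ± 0.04 and 0.03 ± 0.04, with group means between 13.68 and 13.73. Its arrays ran from 13.49 to 13.90, near the highest value of any probe set, 14.14. Whether this limits its range was not tested. Among the members above 12, 18 of 21 passed in either direction in high-lead mice. Between 9 and 12 it was 6 of 13, and below 9 it was 7 of 9. In the same order the counts were 8 of 21, 6 of 13 and 4 of 9 in controls. In low-lead mice they were 10 of 21, 6 of 13 and 6 of 9.

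The paralogs could be followed for Rps27l and Rpl22l1. Rps27l was read on a probe set whose name ends in _x_at, and Rps27 on a dim one of mean 5.94. Rps27l, a p53 target that can take the place of Rps27, fell in low-lead mice from 8.16, 8.60 and 8.84 to 8.05, 8.36 and 8.74, a difference of -0.18 ± 0.07 (limma, adjusted p = 0.023). Its differences in control (-0.15 ± 0.10) and high-lead mice (-0.12 ± 0.07) did not pass. Rps27 itself differed by 0.04, 0.06 and 0.13 in the same order. Both other probe sets of Rps27l were lower after recovery in all 3 groups, with differences from -0.18 to -0.07. With the marker lists as covariates Rps27l was lower in all 3 groups, by -0.36, -0.27 and -0.32 (limma, adjusted p = 0.0334, 0.000964 and 0.000921). Rpl22l1, whose expression is repressed by Rpl22 in cells where this was studied, did not move against it after exposure. High lead was lower than low lead for both, by -0.18 ± 0.05 for Rpl22 (limma, adjusted p = 0.0137) and -0.17 ± 0.07 for Rpl22l1 (limma, adjusted p = 0.0745). On the reported probe sets neither passed in any recovery comparison. With probe sets without suffix Rpl22 fell in low-lead mice by 0.15 (limma, adjusted p = 0.0159). Rpl27a was the gene that fell in high-lead mice, by -0.31 ± 0.13 (limma, adjusted p = 0.0377), to values of 7.01, 7.32 and 7.99, with 10 of 13 recovery arrays below the exposure median. The call of Rpl27a was lost when any of 11 of the 28 arrays was left out (HighPb_Exp replicates 3, 9, 11, 12 and 14 and HighPb_Rec replicates 1, 6, 8, 11, 12 and 13; highest adjusted p = 0.0727 over the 28 limma fits), after median centring, with the median over probe sets, and with the marker covariates (-0.06), the 18S covariate (-0.00) or the 3' minus 5' covariates (-0.28). That of Rps27l was lost after median centring (-0.16) and with the 3' minus 5' covariates, where the difference was -0.03 (limma, adjusted p = 0.805).

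**Figure D5:**
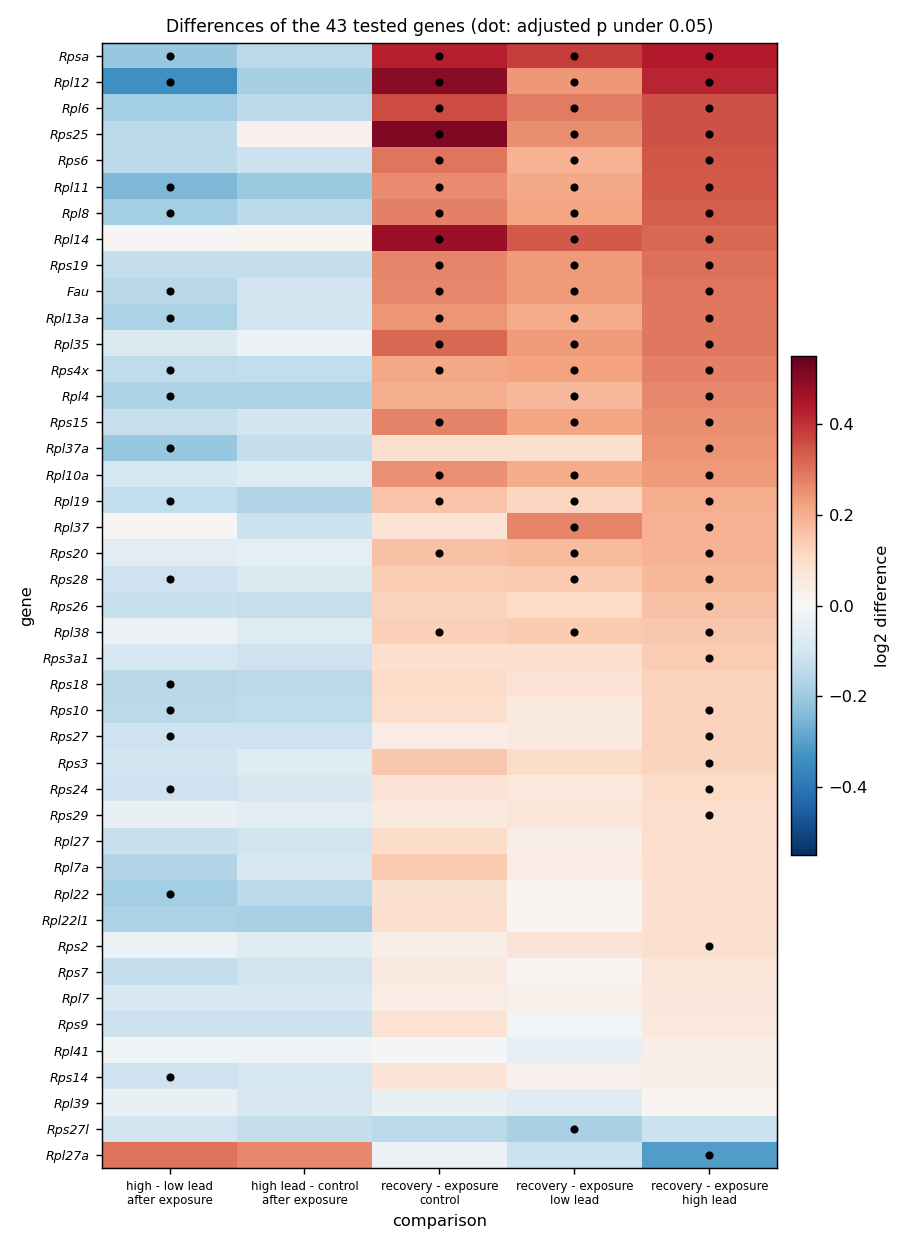
Log2 differences (colour) of the 43 tested genes in 5 comparisons, ordered by the difference between recovery and exposure in high-lead mice; a dot marks an adjusted p under 0.05. Rises fill the recovery columns, 17 genes fall in the high against low lead column, Rps27l and Rpl27a fall in recovery, and no gene is marked in the high lead against control column.

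Some of the marker lists and RNA measures moved with the collections as well. B cell genes rose in 15, 13 and 15 of 15 cases in control, low-lead and high-lead mice (medians 0.91, 0.56 and 0.83), and erythroid genes fell in 10, 9 and 9 of 14 (medians -0.56, -0.37 and -0.34). Of 10 monocyte genes 7, 4 and 6 rose. The array mean of the platelet genes went from 0.11 to -0.25 in controls. It went from -0.17 to -0.02 in low-lead mice and from 0.14 to 0.13 in high-lead mice. In the same order the T cell mean went from 0.07 to 0.07, -0.01 to 0.03 and -0.09 to 0.01. The neutrophil mean went from -0.09 to 0.06, 0.01 to 0.11 and -0.15 to 0.06. The natural killer mean went from -0.05 to 0.05, 0.01 to -0.03 and 0.00 to 0.02. The 3' minus 5' difference of the Gapdh control probe sets, a measure of RNA integrity and labelling length, was 0.54 ± 0.13, 0.53 ± 0.13 and 0.56 ± 0.18 after exposure and 0.91 ± 0.12, 0.93 ± 0.11 and 0.84 ± 0.13 after recovery (SD; n = 7, 15 and 15, then 7, 15 and 13). With the Gapdh and actin differences as covariates the counts were 18, 21 and 29 called, and the medians 0.18, 0.15 and 0.18. With the 6 marker lists as covariates they were 3, 15 and 7 (2, 14 and 5 higher), with medians of 0.04, 0.06 and 0.05. Rpl35 was higher in all 3 of these fits (0.27, 0.22 and 0.21). The 18S level was 7.79 ± 0.99 before and 6.43 ± 0.50 after recovery in high-lead mice (SD, n = 15 and 13). As a covariate it left 16 of the 31 calls there. In controls it went from 7.00 ± 0.73 to 6.38 ± 0.61 (SD, n = 7 each). In low-lead mice it went from 7.00 ± 0.86 to 6.33 ± 0.31 (SD, n = 15 each). With the 18S covariate 14 members were called in controls, against 18 without it, and 18 in low-lead mice, against 22. The control count of 18 became 11 without Control_Exp replicate 7 or without Control_Rec replicate 3. The lead groups' counts stayed between 21 and 25 and between 28 and 32 when any 1 array was left out.

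The whole array shifted between collections, and its split depended on the scaling. In controls 2833 of 4543 called genes were higher, against 2408 of 4907 with cyclic loess and 2496 of 4992 with quantile normalization. In low-lead mice 3300 of 5551 were higher, against 2775 of 5824 after cyclic loess. In high-lead mice 3694 of 6189 were higher, against 2984 of 6569 and 3205 of 6685 under the same scalings. With quantile normalization and cyclic loess, in that order, the members called higher were 20 and 22 in controls, 24 and 21 in low-lead mice, and 25 and 23 in high-lead mice.

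Whether the change between collections differed by dose was tested as an interaction. No member passed in limma. For high lead against control the median interaction was 0.03, 0 members had an unadjusted p under 0.05, and the background was 0% higher and 0.00794% lower. The smallest p-values were those of Rps25 (-0.16 ± 0.11), Rpl37a (0.16 ± 0.13) and Rpl27a (-0.27 ± 0.22), each with a limma adjusted p of 1. For low lead the median was -0.04, 1 member had an unadjusted p under 0.05, and the background was 0.0159% higher and 0.00794% lower. Rps25 (-0.26 ± 0.11, limma adjusted p = 0.395), Rpl12 (-0.26 ± 0.15, limma adjusted p = 0.727) and Rpl37 (0.19 ± 0.12, limma adjusted p = 0.781) had the smallest p-values. Of 3 genes called over the array 2 were higher, against 23 of 45 with cyclic loess and 44 of 78 with quantile normalization. The larger count of rises in high-lead mice is therefore not shown to differ from that in controls. The 14 genes that fell at high against low lead after exposure and rose in high-lead mice by recovery did so on the same 15 high-lead exposure arrays.

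Most of the other probe sets of these genes moved as the one reported. In 20 genes 46 further probe sets passed the filter, and 42 had the sign of the reported one for high against low lead after exposure. In recovery 36, 34 and 41 did so in control, low-lead and high-lead mice. Rps24 was an exception. Its 3 further bright probe sets differed by 0.08 to 0.13 in high-lead mice, close to the reported 0.11, while a dim one of mean 5.76 fell by 0.29 there (limma over probe sets, adjusted p = 0.00559) and by 0.32 in low-lead mice (adjusted p = 0.00147). A dim probe set of Rps4x (mean 4.13) also fell in low-lead mice, by 0.33, as did a brighter one of Rpl22 (mean 10.04), by 0.15. In low-lead mice 5 of the 46 further probe sets were called lower and 13 higher.

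The genes that build or use the ribosome were read from lists beside the members. In the list of 32 ribosome assembly genes 4 fell at high against low lead after exposure (median -0.09), 12.5% against 12.6% of all genes: Nmd3 (-0.36), the export adaptor of the large subunit, Pes1 (-0.36), Ltv1 (-0.27) and Utp14a (-0.18). In recovery 16, 17 and 20 of the 32 rose in control, low-lead and high-lead mice and 0, 2 and 1 fell, with medians of 0.26, 0.15 and 0.27. The shares that rose were 50%, 53.1% and 62.5%, against 22.5%, 26.2% and 29.3% of all genes. Ncl, the nucleolar protein nucleolin, rose by 0.82, 0.62 and 0.53. In the list of 24 translation factors and partners 3 fell at high against low lead, also 12.5%, close to all genes: Eif3f (-0.23), Eif3e (-0.21) and Eef1a1 (-0.11). In recovery 7, 7 and 8 rose (29.2%, 29.2% and 33.3%), shares near those of all genes, and 1, 2 and 2 fell. Eif4b rose by 0.45, 0.24 and 0.27 and Eif3d by 0.41, 0.39 and 0.49, while Eif4a2, an RNA helicase of initiation, fell by 0.70, 0.58 and 0.61. Of the 2 stalk genes measured, Rplp2 rose in high-lead mice (0.17) and Rplp0 passed in no comparison. In the list of 14 genes that regulate pyrimidine-tract mRNAs 2 fell at high against low lead (14.3%, near the share of all genes), and in recovery 4, 7 and 5 rose (28.6%, 50% and 35.7%) and 1, 3 and 1 fell.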

How the data were processed

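RNA of 72 whole-blood samples was hybridised to Affymetrix mouse expression arrays. The authors deposited log2 expression values made with RMA, per the submitters' processing notes; no version or background setting is named there. Means were fitted for the 6 groups together in limma 3.58.1 (R 4.3.3; 66 residual degrees of freedom; statmod 1.5.0 loaded), with empirical Bayes moderation and Benjamini-Hochberg adjustment over 12588 genes within each of 11 comparisons. Control probe sets were dropped. A probe set was kept if it exceeded the median of all values, 4.14, on at least 7 arrays. Of 45101 probe sets 34945 named a single gene in the platform annotation, 932 several and 9160 none. The gene identifiers of all 47 members matched the current gene table.

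Members and lists were chosen with earlier results of these data known. The genes named were the 5 highest and 5 lowest called for high against low lead after exposure and for each recovery comparison, up to 3 in each direction elsewhere (or the 3 smallest p-values), 27 genes fixed by name (paralogs, some anaemia genes and genes with other roles, of which 17 were tested), and the 5 genes most like the members. Where other genes are named, they complete a count or were chosen after their values were seen. Replicate numbers were not shown to pair the samples. The test was checked on simulated data with genes drawn independently and shifts larger than most differences of the members. That check does not bear on counts among genes that move together, as the members do. Alternatives covered normalization, the filter, the choice of probe set, array quality, cell markers, blocking and leaving out arrays. The number of arrays limits the precision.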

Additional observations from a re-analysis of the deposited data

Results flagged for a closer look

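In groups of 7 arrays the gap between an extreme array and its nearest neighbour was set against the whole range, over 62 combinations of a gene and a group; chance alone gives such a gap in about 5% of groups. Rpl12 in the control exposure group had a gap of 0.678 of the range, with replicate 3 at 5.96 and the next array at 5.42. Rps14 in the control recovery group had a gap of 0.727 of the range, with replicate 4 at 12.47 and the next array at 12.59.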

How the results depend on the processing

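Leaving out 1 array at a time gave 7 to 28 genes for high against low lead after exposure (17 reported), 11 to 21 for recovery in controls (18), 21 to 25 in low-lead mice (22) and 28 to 32 in high-lead mice (31), and 0 in the other 7 comparisons. For high against low lead after exposure the count became 9 with quantile normalization, 9 with median centring, 11 without the filter, 7 with probe sets whose name has no suffix (18 members tested), 0 with cell marker covariates, 1 with the 18S covariate and 9 without the 2 wide-spread arrays. For recovery it became 9, 12 and 12 with probe sets without suffix in control, low-lead and high-lead mice, 3 and 7 with cell marker covariates in control and high-lead mice, and 16 with the 18S covariate in high-lead mice. Probe sets without suffix called 1 gene for low lead against control after exposure (Rps10), and cyclic loess called 1 for high lead against control after recovery (Rps9). Fewer members were tested with probe sets without suffix; the causes of the other changes were not tested.

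The titles number replicates within each group. The numbers were not shown to pair the samples: same-numbered arrays correlated from -0.42 to 0.26 in controls, from -0.30 to 0.51 with low lead and from -0.46 to 0.48 with high lead, and 0 of 7, 3 of 15 and 1 of 13 correlated best with their own number. With the replicate block 6 members were called for recovery in controls, 21 in low-lead and 24 in high-lead mice, and 15 for high against low lead after exposure.

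Over 104 single-gene results and all settings, 3687 of 4011 values kept their side of the threshold and, where called, their direction. Among these 3687, uncalled values could change sign within a margin set from the gene's standard error. A further 249 lost the call and 39 gained it. Another 26 changed sign by more than that margin without being past the threshold in either fit, and 10 turned over with a call. With cell marker covariates the 10 included Rpsa (0.014) and Fau (0.043) for high against low lead after exposure, Fau for recovery in controls (-0.0096) and Rps3 for recovery in high-lead mice (-0.083). With the median over probe sets they were Rps4x for high against low lead (0.019), and Rpl22 (-0.15) and Rps4x (-0.052) for recovery in low-lead mice. With probe sets without suffix they were Rpl22 (-0.15) and Rps24 (-0.32) in low-lead mice and Rps24 in high-lead mice (-0.29). The covariate of relative log expression and the leaving out of lead arrays were chosen after seeing the data. Signal over background limits the genes read on dim probe sets, and 4 members could not be tested.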

Other observations

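The proteins of the mitochondrial ribosome are encoded by a separate family of nuclear genes, and 76 of them were measured. At high against low lead after exposure 69 of 76 were lower, 13 fell and 1 rose past the threshold, with a median of -0.11. The share that fell was 17.1%, against 12.6% of all genes. Between the collections 26, 27 and 41 rose and 4, 5 and 5 fell in control, low-lead and high-lead mice, with medians of 0.16, 0.12 and 0.20. The shares that rose were 34.2%, 35.5% and 53.9%, against 22.5%, 26.2% and 29.3% of all genes. Their mean was -0.13 ± 0.13 in high-lead arrays after exposure (SD, n = 15) and -0.03 ± 0.10 in low-lead arrays (SD, n = 15).

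The genes whose within-group deviations ran most strongly against the mean of the cytosolic ribosomal protein genes, chosen after the values were seen, were Col6a3 (r = -0.83), Smtnl2 (-0.83), Tmem89 (-0.83), Lce3c (-0.82) and Hsd3b3 (-0.80) over the 72 arrays, all with a mean log2 intensity of 7.00 or less.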
